A study of Mus musculus with 5 samples.

Results

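Eid3 is a single-exon gene that lies inside an intron of Txnrd1 on mouse chromosome 10, and its start site and coding sequence were the CpG-dense stretch at which methylation differed most between Cebpa-/p30 Tet2+/+ and Cebpa-/p30 Tet2-/- leukemias within this locus. The locus was taken as Txnrd1 with 20000 bp on each side (GRCm38, chr10:82813951-82917712), and it held 1532 of the 21353092 CpG dyads on the autosomes and the X chromosome. A CpG dyad is a CpG counted once, with the calls of its cytosines on both strands added. The locus was chosen on the difference in methylation level between the genotypes at the Eid3 promoter, so the differences between genotypes at Eid3 and Txnrd1 are described here and not tested.

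Whole-genome bisulfite sequencing was performed on blasts of murine acute myeloid leukemia (AML), taken from bone marrow. Bisulfite converts unmethylated cytosine but neither methylated nor hydroxymethylated cytosine, so both of the latter are read as methylated. All 5 libraries carried 1 deleted Cebpa allele and 1 allele from which p30 alone is made, a shorter form of CEBPA, a transcription factor of the myeloid lineage. Tet2 was intact in 2 libraries (Cebpa-/p30 Tet2+/+, numbers 23 and 24) and deleted in 3 (Cebpa-/p30 Tet2-/-, numbers 5, 7 and 8). Floxed alleles were recombined by Mx1-Cre, which responds to interferon and is active in blood cells and other tissues, after poly(I:C) had been given to irradiated female recipients of donor marrow, and all libraries share this treatment. The strain was C57BL/6, and the age of the donor mice was not given in the labels. Live donor-derived cells were sorted as negative for CD3, B220 and Ter119. They are a mixed population, in which a changed mix of cells and a change within cells cannot be told apart. The labels do not say which libraries, if any, came from the same donor.

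TET2 oxidises methylated cytosine, which is a step towards its removal, and DNA methylation at CpG-dense promoters usually accompanies silencing. Eid3 encodes an inhibitor that binds the acetyltransferases p300 and CBP and is related to the NSE4 subunit of the SMC5/6 complex, which acts in DNA repair. Txnrd1 encodes the cytosolic thioredoxin reductase, a selenoprotein that uses NADPH to reduce thioredoxin and is a known target of the antioxidant transcription factor NRF2. An intronic gene of this kind can carry a promoter whose methylation differs from that of the host gene around it, since gene bodies are usually methylated.

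Across the genome, the methylation level, which is the share of calls that were methylated, was 67.3% and 62.3% in the Tet2+/+ libraries and 70.9%, 74.8% and 68.4% in the Tet2-/- libraries. The means were thus 6.52 points apart. Mean depth was 2.96 to 5.19 calls per dyad. Methylation of mitochondrial CpGs, a guide to incomplete conversion, was 0.807% to 0.989%. Within Tet2, a run of 36 dyads (chr3:133466411-133468352) had no call in any Tet2-/- library, but 128 and 151 calls in the Tet2+/+ libraries. The labels therefore held at the targeted gene.

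Eid3 (ENSMUSG00000109864.1) extends from 82866626 to 82867930 on the plus strand, and its coding region from 82866707 to 82867831. Txnrd1 (ENSMUSG00000020250.10) extends from 82833951 to 82897712 on the same strand. Its longer transcript starts 32675 bp before Eid3, and its CCDS transcript, which begins in a CpG island, starts at 82859179, 7447 bp before Eid3. Eid3 lies in the first intron of both transcripts. Of the 2 genes, Txnrd1 matched the RefSeq promoter sequences used here (GRCm38.p6, plus strand, 250 bases before to 50 after a start). Another matched Txnrd1 start, with its sequence at chr10:82860091-82860390 and 12 CpGs, is not printed. It was low, at 1.79% and 2.56% in Tet2+/+ and at 1.05%, 0% and 0% in Tet2-/-, from 39 to 95 calls per library. In libraries 7 and 8 its count of 0 allows up to 3.75% and 5.56%. The promoter sequences of the upstream and the island start are shown because these starts of the host gene kept opposite methylation states in all libraries. CpGs are in capitals.
Txnrd1 upstream start, chr10:82833701-82834000: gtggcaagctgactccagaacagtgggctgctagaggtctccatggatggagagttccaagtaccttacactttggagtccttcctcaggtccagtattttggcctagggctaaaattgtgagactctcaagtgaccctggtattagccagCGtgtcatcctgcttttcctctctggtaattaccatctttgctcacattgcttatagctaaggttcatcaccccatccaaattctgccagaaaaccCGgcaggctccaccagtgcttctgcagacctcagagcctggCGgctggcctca
Txnrd1 island start, chr10:82858956-82859255: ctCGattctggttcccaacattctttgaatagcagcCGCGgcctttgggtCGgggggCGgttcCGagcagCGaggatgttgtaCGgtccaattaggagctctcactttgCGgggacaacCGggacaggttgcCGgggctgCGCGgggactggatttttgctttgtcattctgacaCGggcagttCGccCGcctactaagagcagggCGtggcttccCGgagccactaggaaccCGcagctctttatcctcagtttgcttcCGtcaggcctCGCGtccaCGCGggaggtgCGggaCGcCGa
The upstream sequence holds 3 CpGs and the island sequence 27. In the island sequence the methylation level was 1.85% and 0.840% in the Tet2+/+ libraries and 0% in each Tet2-/- library, from at least 108 calls per library. In the Tet2-/- libraries 5, 7 and 8, a count of 0 still allows a level of up to 1.88%, 1.46% and 2.75%. In the upstream sequence the level was 86.7% to 100%, from only 11 to 30 calls per library. Among motifs searched on both strands, the island sequence held 1 CCAAT box (CCAAT) on the plus strand, 1 GC box (GGGCGG) on the plus strand and 1 match to the antioxidant response element (TGACNNNGC) on the minus strand. These letters occurred in 37.4%, 35.7% and 12.4%, respectively, of the 32851 promoter sequences of the same length. A C/EBP motif (TTGCNNAA), an AP-1 motif (TGANTCA) and an E-box (CACGTG), which occurred in 10.8%, 7.81% and 7.15% of promoters, were not found in either sequence, and the upstream sequence held none of the 6 motifs.

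The Eid3 promoter, taken as the start with 1000 bp before and after it, was lowly methylated in both Tet2+/+ leukemias and highly methylated in all 3 Tet2-/- leukemias. It held 47 dyads. The level was 26.3% (95% Wilson interval 21.0 to 32.3) in Tet2+/+ library 23 and 20.7% (16.2 to 26.1) in library 24. It was 84.4% (79.6 to 88.2) in Tet2-/- library 5, 91.4% (87.6 to 94.1) in library 7 and 86.6% (79.6 to 91.5) in library 8. The groups did not overlap, and the lowest Tet2-/- library lay far above the higher Tet2+/+ library. The Tet2+/+ mean was 23.5% ± 3.95 (SD, n = 2) and the Tet2-/- mean 87.5% ± 3.60 (SD, n = 3), which is 64.0 points higher, from 127 to 291 calls per library. Intervals cover counting error only. The difference was the second of 19455 promoters in size, after Bcl2a1a (65.8 points) and before P2ry6 (62.7 points), and 15 promoters had a difference of at least 50 points. As the locus was chosen on this value, its place is a description. Another 1334 promoters had a Tet2+/+ mean within 5 points of that of Eid3, and their differences ran from -21.3 to 62.7 points with a median of 6.46.

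**Figure D1:**
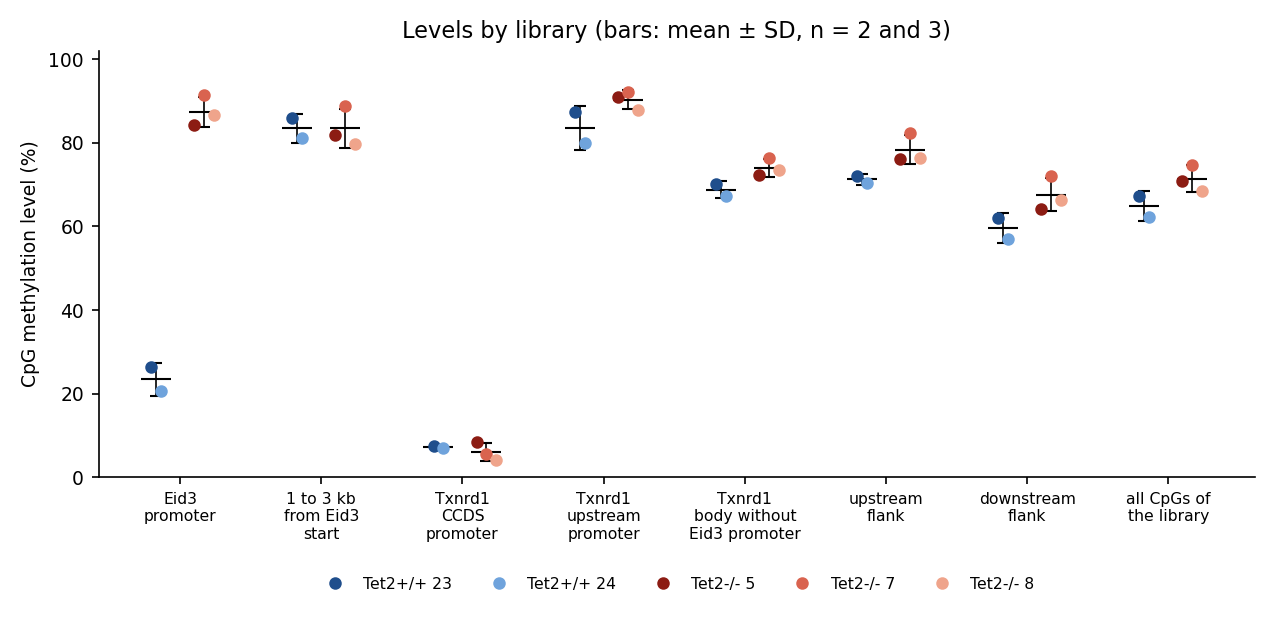
Methylation level (%) of the Eid3 promoter, of other segments of the locus and of all CpGs, by library. Points are libraries and bars the mean ± SD (n = 2 Tet2+/+, n = 3 Tet2-/-). At the Eid3 promoter the means are 23.5% and 87.5%, whereas 1 to 3 kb from the start they are 83.5% and 83.4%.

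The gain covered a compact block. Of the 77 dyads within 3000 bp of the start that had at least 5 calls in each group, 32 were at least 50 points higher in the pooled Tet2-/- calls. They ran from 44 bp before the start to 762 bp after it (chr10:82866582-82867389, 808 bp), and only 3 of the 35 dyads in that block fell short of 50 points. The smallest pooled difference in the block was 31.8 points and the median 75.0. Over the block, the level was 19.3% and 13.1% in the Tet2+/+ libraries and 87.2%, 93.4% and 90.8% in the Tet2-/- libraries, from 87 to 244 calls per library. The block was cut out by its difference, so these values have no independent weight.

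Within the block, the 5′ part before the coding region and the coding part had like levels. The 8 dyads of the 5′ part, which include those 44, 32 and 6 bp before the start, were at 27.3% and 7.69% in Tet2+/+ and at 89.2%, 92.0% and 90.0% in Tet2-/-. The 27 dyads of the coding part were at 17.6% and 14.4% in Tet2+/+ and at 86.4%, 93.8% and 91.0% in Tet2-/-. Only the Tet2+/+ libraries stood apart from each other, in the short 5′ part, where each dyad had 2 to 6 calls in either of them. Single dyads varied. With at least 3 calls, 20 of 33 dyads in library 23 and 26 of 35 in library 24 were under 25%, and the other 13 and 9 were between 25% and 75%. In libraries 5, 7 and 8, 25 of 31, 30 of 31 and 11 of 14 dyads were over 75%, and the other 6, 1 and 3 were between 25% and 75%.

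After its end, the block gave way to methylated CpGs in both genotypes, though not at once. The first dyad past it, 856 bp after the start, was at 50% of 6 pooled calls in Tet2+/+ and at 75% of 8 in Tet2-/-. At 917 and 969 bp after the start, still in the exon, pooled levels were 85.7% and 91.7% in Tet2+/+ and 92.9% and 87.0% in Tet2-/-. Before the start the change was less even. The dyad 440 bp before it had 1 of 15 calls methylated in Tet2+/+ and 9 of 16 in Tet2-/-, and lay beyond dyads with smaller differences. The dyad 86 bp before the start was called unmethylated in all 14 calls, 6 in Tet2+/+ and 8 in Tet2-/-. It bordered directly on the gained block. Pooled over both genotypes, this count of 0 allows a level of up to 21.4%, and the limit for either genotype alone is higher. The 43 dyads between 1 and 3 kb from the start were at 85.9% and 81.0% in Tet2+/+ and at 81.8%, 88.8% and 79.7% in Tet2-/-. There the groups overlapped fully, and the means differed by -0.01 points.

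**Figure D2:**
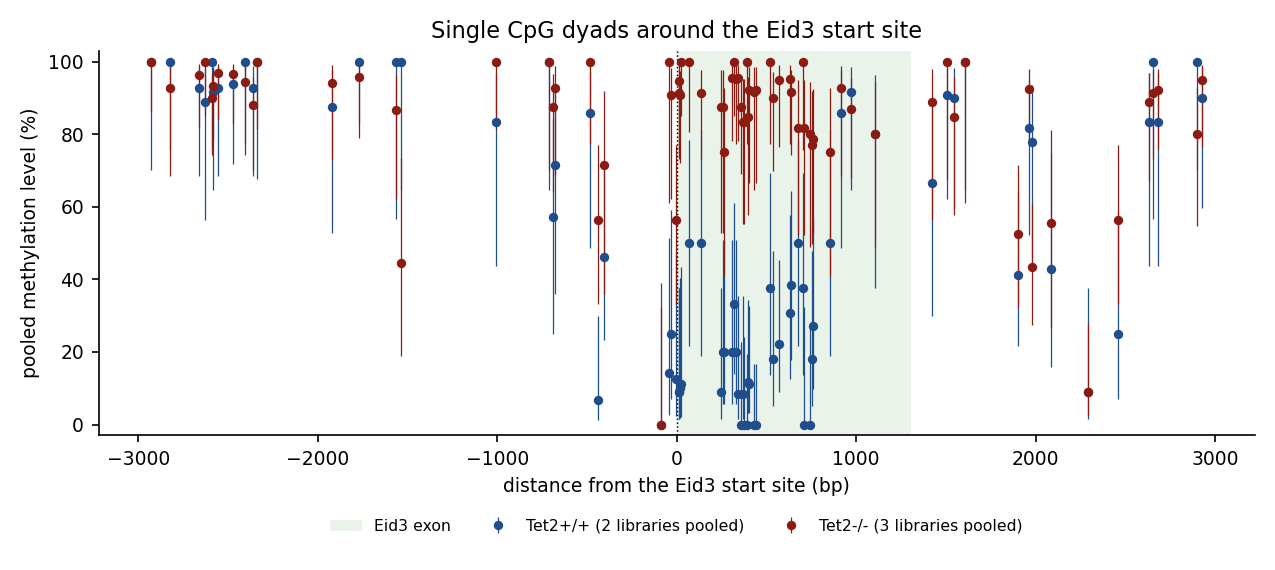
Pooled methylation level (%) of each CpG dyad with at least 5 calls in each genotype, against its distance (bp) from the Eid3 start. Bars are 95% Wilson intervals of the pooled calls, which cover counting error only, and the shaded band is the exon. Tet2+/+ points fall to between 0% and 50% from 44 bp before to 762 bp after the start, where Tet2-/- points stay at 56.2% or above.

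The level on each strand is a part of the value on which the locus was chosen, and is given as a description. The plus strand of the Eid3 promoter was at 28.1% and 21.1% in Tet2+/+ and at 81.7%, 90.2% and 86.6% in Tet2-/-. The minus strand was at 22.8% and 20% in Tet2+/+ and at 88.3%, 93.8% and 86.7% in Tet2-/-. The difference between the strands had no part in the choice. The plus strand minus the minus strand was 5.32 and 1.12 points in Tet2+/+ and -6.58, -3.61 and -0.10 points in Tet2-/-. The genotypes thus had opposite signs without overlap, and the Tet2-/- mean was lower by 6.65 points (exact permutation test, two-sided, p = 0.2, where 0.1 is the smallest possible). This comparison of genotypes was added after the data were seen. Each strand had only 60 to 194 calls per library, and the counting error of these small differences was not estimated. Over all 5 libraries the mean was -0.77 points (exact sign-flip test, two-sided, p = 0.688, where 0.062 is the smallest possible), a mean in which the opposite signs cancel. Calls are the denominator of the level, but depth was not compared between genotypes in the choice. Calls per dyad in the promoter overlapped, at 4.94 and 5.45 in Tet2+/+ and at 5.85, 6.19 and 2.70 in Tet2-/-. Only depth relative to the rest of the locus separated the genotypes. Calls per dyad in the Eid3 promoter were 110% and 124% of those in the rest of the locus in Tet2+/+, and 91.1%, 93.6% and 71.5% in Tet2-/-. Every Tet2-/- library was lower, by 31.4 points in the mean, and the exact permutation test gave p = 0.1, the smallest that 2 against 3 libraries allow. When every library was thinned to the depth of the shallowest, the difference in methylation was 63.0 points.

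The island promoter of Txnrd1, at the start of the CCDS transcript, was unmethylated or nearly so in every library. Within 1000 bp of that start, 66 dyads were at 7.47% and 7.14% in Tet2+/+ and at 8.55%, 5.52% and 4.25% in Tet2-/-, from 259 to 471 calls per library. The Tet2+/+ values lay among the Tet2-/- values, with a Tet2+/+ mean of 7.31% ± 0.234 (SD, n = 2) and a Tet2-/- mean of 6.11% ± 2.21 (SD, n = 3). The 1 kb windows that began 7625 and 6625 bp before the Eid3 start, with 47 and 52 dyads, did not exceed 2.06% in any library. The genotypes thus differed widely at the Eid3 promoter, but not by this size at the island, 7447 bp away in the same gene. The 2 regions were not alike in Tet2+/+, with means of 23.5% and 7.31%. Over all 500 bp windows, the median difference was 16.5 points where the Tet2+/+ mean was 10% to 30%. It was 1.80 points where that mean was under 10%.

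The upstream promoter of Txnrd1 was methylated in every library. Its 30 dyads were at 87.3% and 79.8% in Tet2+/+ and at 90.9%, 92.2% and 87.7% in Tet2-/-. The groups lay next to each other without overlap, with a Tet2+/+ mean of 83.6% ± 5.29 (SD, n = 2) and a Tet2-/- mean of 90.3% ± 2.29 (SD, n = 3). The difference of 6.68 points was 0.16 points after the level of each library as a whole was subtracted.

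The body of Txnrd1 followed the libraries as a whole. Without the Eid3 promoter, its 916 dyads were at 70.2% and 67.3% in Tet2+/+ and at 72.3%, 76.4% and 73.4% in Tet2-/-. The groups did not overlap, and the means were 5.23 points apart. After subtraction of each library's level the difference turned to -1.29 points. The intron of the CCDS transcript around Eid3, without 1000 bp on each side of both starts, was at 57.9% and 57.2% in Tet2+/+ and at 57.2%, 58.9% and 57.6% in Tet2-/-. In this intron the groups overlapped, and the means were 0.37 points apart. Its 183 dyads still included island CpGs, as in the window chr10:82860501-82861000, where 31 dyads did not exceed 0.952% in any library. The level of the intron is therefore an average over unmethylated and methylated stretches. The flank of 20 kb before Txnrd1 gained 7.07 points and that after it 7.96 points in the means.

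**Figure D3:**
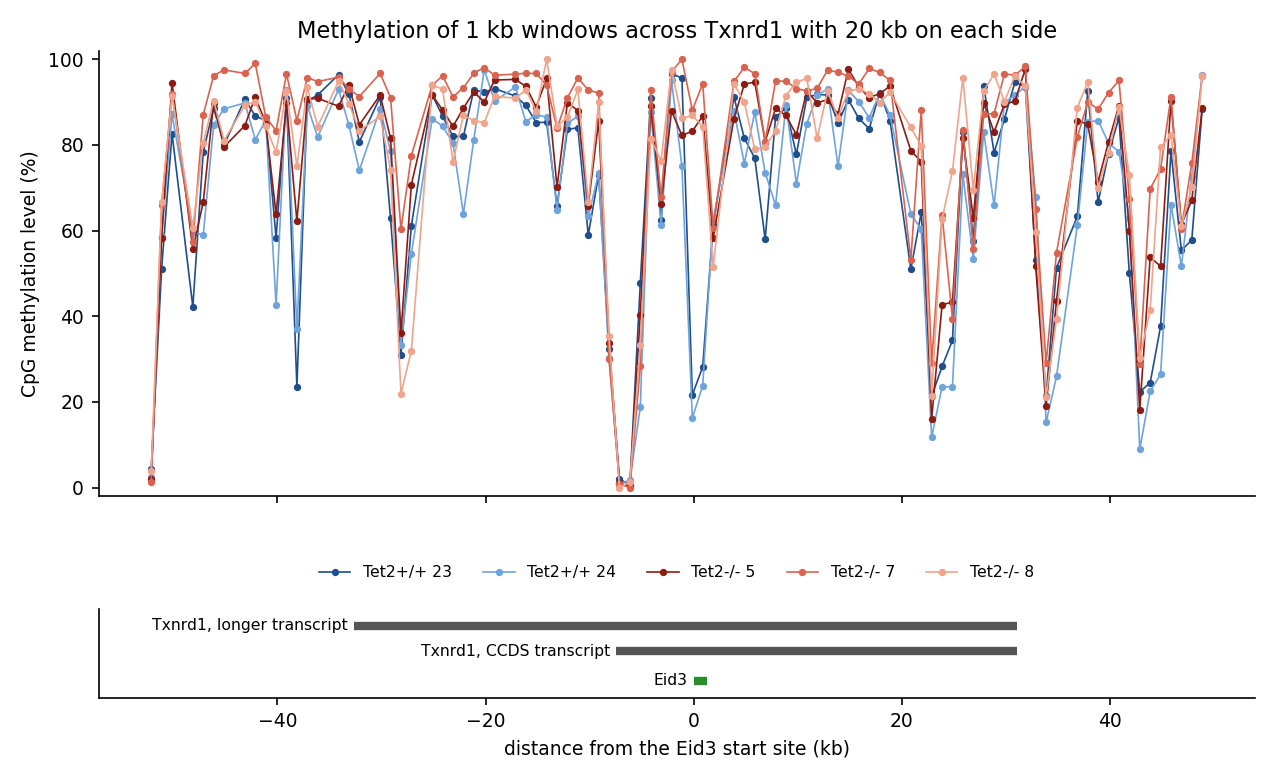
Methylation level (%) of 1 kb windows across Txnrd1 and its flanks, by library, against the distance (kb) from the Eid3 start. Lines join successive windows in which no library had fewer than 20 calls, and the lower panel places the genes. At Eid3 the Tet2+/+ libraries fall to 16.3% to 28.2% while the Tet2-/- libraries stay at 83.2% to 94.3%, and at the Txnrd1 island all libraries are near 0.

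In 500 bp windows, 161 windows of the locus had at least 10 calls in every library. In 58 of them (36.0%) all Tet2-/- libraries lay above both Tet2+/+ libraries, against 27.6% of the 1899555 windows of the genome. They lay below in 3 (1.86%), against 2.93% of the genome. In 1 kb windows with at least 20 calls, the locus had 38 of 93 windows higher (40.9%), against 32.9% of the genome, and 1 lower (1.08%), against 2.06%. Without library 23 or library 8, the higher 500 bp windows numbered 89 or 92. No genome share is given for these counts, and with fewer libraries non-overlap is easier to reach in any region. Nothing is read from these shares, since the locus was chosen on this comparison. The median difference was 6.14 points in the 500 bp windows of the locus and 5.67 in all windows, and 5.71 and 5.96 points in 1 kb windows.

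Both 500 bp windows with a difference of at least 50 points adjoined each other at Eid3. The window from 125 bp before the start had 20 dyads and was at 17.2% and 13.6% in Tet2+/+ and at 85.4%, 90.2% and 92.3% in Tet2-/-. The next window, 17 dyads in the coding region, was at 21.7% and 13% in Tet2+/+ and at 84.8%, 95.3% and 86.1% in Tet2-/-. These windows changed from under 25% to over 75% in the group means, as did 917 of the 64355 windows of the genome with at least 10 dyads and a Tet2+/+ mean under 25% (1.42%). Such a change at this CpG density was therefore uncommon but not limited to Eid3. The window just before them, from 625 bp before the start, missed the minimum with 9 calls in library 8. Its 5 dyads were at 44.4% and 30% in Tet2+/+, from 18 and 20 calls, and at 72.0%, 70.6% and 55.6% in Tet2-/-, so that this edge was partly methylated in Tet2+/+. The window just after them, also 5 dyads, was at 90.9% and 88.9% in Tet2+/+ and at 95.5%, 88.2% and 80.0% in Tet2-/-.

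Smaller gains lay elsewhere in the locus, at stretches that were partly methylated in Tet2+/+. Of the 91 windows of 1 kb that held no base of the Eid3 exon, 7 (7.69%) were higher by at least 20 points without overlap, against 9.31% of all windows of the genome. In the upstream flank, the window 38625 bp before the Eid3 start, with 7 dyads, was at 23.5% and 37.0% in Tet2+/+ and at 62.2%, 85.7% and 75.0% in Tet2-/-. Near the 3′ end of Txnrd1, the window 23375 bp after the Eid3 start, which holds exon 14 of the longer transcript, was at 28.3% and 23.5% in Tet2+/+ and at 42.7%, 63.7% and 62.7% in Tet2-/-. In the downstream flank, the window 44375 bp after the start was at 37.6% and 26.4% in Tet2+/+ and at 51.7%, 74.4% and 79.5% in Tet2-/-. In the 7 windows the range of the Tet2-/- libraries was 6.91 to 34.4 points, and in the 1 kb windows at Eid3 it was 4.90 and 10.00 points. Dips that held in both genotypes also occurred, as in the window 22375 bp after the start, at 21.3% and 11.8% in Tet2+/+ and at 16.1%, 29.2% and 21.4% in Tet2-/-.

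Promoters of the genes around Eid3 did not pass the test. In edgeR's quasi-likelihood test over the 19455 promoters that reached 20 calls in each library, 206 (1.06%) were higher and 3 (0.0154%) lower in Tet2-/- at a Benjamini-Hochberg adjusted p of 0.05. Together these were 209, which fell to 0 without Tet2+/+ library 24, to 21 without library 23, and to 105 and 83 without Tet2-/- libraries 7 and 8, so that calls of single promoters rest on both Tet2+/+ libraries. Of 6 other protein-coding genes that start within 250 kb of Eid3, none passed (lowest edgeR adjusted p 0.341). None had an unadjusted edgeR p under 0.05, against 18.1% of all promoters. None passed in edgeR's likelihood ratio test or limma, against 4.72% and 0.93% of all promoters. With only 6 promoters, nothing is read from these counts of 0. Tdg, the glycosylase that excises the oxidised cytosines made by TET enzymes, starts 236798 bp before Eid3 and was at 3.45% and 2.74% in Tet2+/+ and at 6.97%, 4.81% and 3.09% in Tet2-/-. Nfyb, a subunit of the CCAAT-binding factor NF-Y, was at 4.13% and 3.38% and at 2.56%, 1.79% and 2.03%. Chst11, a chondroitin sulfotransferase and the nearest gene after Txnrd1, was at 2.11% and 2.33% and at 2.34%, 3.04% and 4.06%. The promoter of 1190007I07Rik was also under 3% in every library. Partly methylated promoters were those of Glt8d2, with means of 27.6% and 37.7%, and of Hcfc2, with means of 41.0% and 35.5%. The promoters of Tdg, Nfyb and Chst11, with 109, 144 and 129 dyads, were thus low in both genotypes, whereas that of Eid3 was low in Tet2+/+ alone. Their Tet2+/+ means of 3.10%, 3.76% and 2.22% were well under the 23.5% of Eid3, so the promoters were not matched in level.

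Promoters nested in another gene, as Eid3 is, were compared by annotation alone. Of 1304 such promoters without Eid3, 12 were higher (0.92%) and 0 lower, against 1.06% of all promoters, and their median difference was 3.21 points, against 2.22 points for all. Of the 170 nested promoters of single-exon genes, 3 were higher (1.76%), with a median difference of 4.21 points. These 3 were named after their values were seen. Mab21l2, in Lrba, was at 38.9% and 12.2% in Tet2+/+ and at 63.2%, 95.7% and 84.3% in Tet2-/- (edgeR adjusted p = 0.0425). AC161166.1, in Zfp428, was at 56.3% and 63.6% and at 85.9%, 93.3% and 87.2% (edgeR adjusted p = 0.0329). Cstf2t, a cleavage stimulation factor subunit in Prkg1, was at 13.6% and 9.15% and at 34.6%, 33.3% and 36.6% (edgeR adjusted p = 0.0195). Limma after median subtraction called 0 nested promoters, these 3 included, against 0.206% of all promoters. Without Tet2-/- libraries 5, 7 and 8, the nested promoters called numbered 19 of 1304, 4 of 1304 and 5 of 1319. Those called of all promoters were then 298 of 19457, 105 of 19464 and 83 of 19761. The calls of Mab21l2 and AC161166.1 were lost without library 7 (edgeR adjusted p = 0.0807 and 0.0670) or library 8 (edgeR adjusted p = 0.0927 and 0.0609). That of Cstf2t held without library 5, 7 or 8 (edgeR adjusted p 0.0296 to 0.0482). AC161166.1 was also not called with 500 bp on each side (edgeR adjusted p = 0.211) or by limma (limma adjusted p = 0.0536).

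The promoters most like Eid3, by the root mean square difference over the 5 library levels, were those of Aldh8a1 (5.37 points), 4922502D21Rik (6.10), P2ry6 (7.62), Myrfl (8.13) and Rxfp4 (8.97). They took part in the edgeR fit over all promoters, but as they were chosen by their levels, their p-values are not given. Aldh8a1, an aldehyde dehydrogenase, was at 37.0% and 25% in Tet2+/+ and at 85.6%, 90.1% and 83.9% in Tet2-/-. P2ry6, a receptor for uridine diphosphate, was at 23.9% and 29.2% and at 94.2%, 82.0% and 91.7%. Rxfp4, a receptor for relaxin-family peptides encoded by a single exon, was at 35.0% and 30.1% and at 76.1%, 84.6% and 75.4%. In all, 7 promoters lay within 10 points of Eid3 by this measure.

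**Figure D4:**
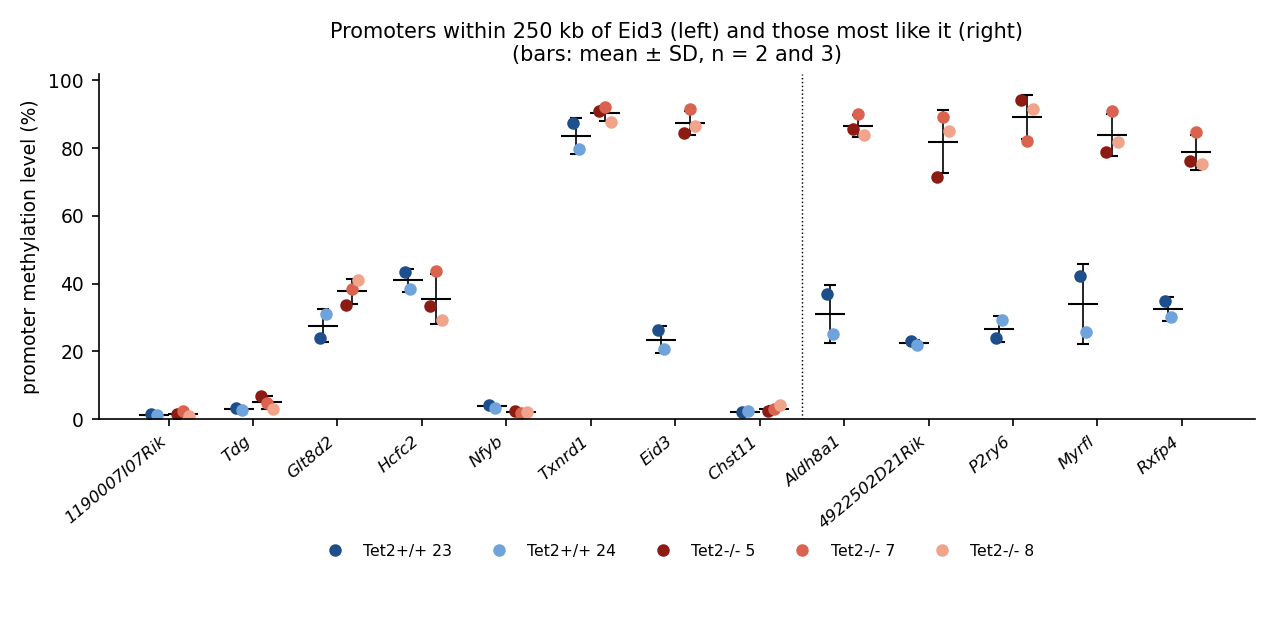
Promoter methylation level (%) of protein-coding genes that start within 250 kb of Eid3, in order along the chromosome (left of the dotted line), and of the 5 promoters most like Eid3 (right). Points are libraries and bars the mean ± SD (n = 2 Tet2+/+, n = 3 Tet2-/-). Left of the line only Eid3 is low in Tet2+/+ and high in Tet2-/-, with means of 23.5% and 87.5%.

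Genes that act with Txnrd1 and Eid3 were described from 3 lists. In the list of thioredoxin, peroxiredoxin, glutathione and NRF2 genes, 29 of 30 were measured and 0 passed in edgeR. An unadjusted p under 0.05 was found for 2 (6.90%), against 18.1% of all promoters. Limma and the likelihood ratio test called 0, against 0.93% and 4.72% of all promoters. The median difference was 0.50 points, against 2.22 for all promoters. Under 10% in the Tet2+/+ mean were 21 of 29, and 8611 of all 19455 promoters. The largest difference was at Prdx4, an X-linked gene for a peroxiredoxin of the endoplasmic reticulum. Its promoter was at 59.3% and 37.2% in Tet2+/+ and at 83.4%, 75.4% and 59.0% in Tet2-/- (edgeR adjusted p = 0.183), and the groups overlapped. Hmox1, the heme oxygenase induced by NRF2, was at 12.2% and 9.56% and at 9.56%, 24.8% and 19.1% (edgeR adjusted p = 0.462). Msra, a methionine sulfoxide reductase, was at 81.6% and 78.8% and at 90.3%, 88.1% and 81.4% (edgeR adjusted p = 0.473), as methylated as the upstream Txnrd1 promoter.

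In the list of other selenoproteins and the factors that make them, 0 of 25 passed in edgeR and 4 (16%) had an unadjusted p under 0.05, against 18.1% of all promoters. Their differences had a median of 2.94 points, and 22 of 25 (88.0%) were above 0, as were 76.7% of those of all promoters. Limma called 0 and the likelihood ratio test 3 (12%, against 4.72% of all), namely Dio1, Gpx2 and Selenom. Dio1, a deiodinase of thyroid hormone, was at 50.5% and 43.0% in Tet2+/+ and at 71.7%, 84.1% and 74.6% in Tet2-/- (edgeR adjusted p = 0.0747). Gpx2, a glutathione peroxidase nested in Fntb, was at 79.6% and 72.6% and at 92.4%, 95.4% and 89.5% (edgeR adjusted p = 0.0800). Dio3, an imprinted deiodinase with a single exon, was at 44.1% and 61.6% and at 70.5%, 63.3% and 60.9% (edgeR adjusted p = 0.352).

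In the list of EID relatives, SMC5/6 subunits and their partners, 0 of 15 passed in edgeR, limma and the likelihood ratio test. Of all promoters, 1.06% were higher in edgeR, and limma and the likelihood ratio test called 0.93% and 4.72%. An unadjusted edgeR p under 0.05 was found for 1 (6.67%), against 18.1% of all promoters. The differences of this list had a median of 0.29 points, against 2.22 for all promoters. Eid2, a single-exon relative of Eid3, was at 29.0% and 40.1% in Tet2+/+ and at 43.4%, 38.4% and 56.5% in Tet2-/- (edgeR adjusted p = 0.391). Nsmce4a encodes the widely expressed NSE4 protein related to EID3. The annotated 5′ end used for it lies inside Fgfr2, and other starts of the gene were not measured. At this 5′ end Nsmce4a was at 81.0% and 76.9% and at 84.3%, 89.6% and 79.6% (edgeR adjusted p = 0.552). Nr0b2, a nuclear receptor that binds EID1, was at 30.6% and 52.6% and at 32.5%, 36.1% and 36.4% (edgeR adjusted p = 0.714). Among the relatives and partners that were named, the groups overlapped at each.

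Marker promoters were read beside these values, since the cells were sorted without a myeloid marker. Of 15 myeloid markers, 8 were under 10% in the Tet2+/+ mean, as were 8611 of all 19455 promoters. This held for 0 of 12 lymphoid and 1 of 7 measured erythroid markers. No cell identity is read from the myeloid count. The mean level of the myeloid list was 22.6% and 23.1% in Tet2+/+ and 25.2%, 29.6% and 26.3% in Tet2-/-, that of the lymphoid list 60.3% to 61.6% and 67.8% to 74.2%, and that of the erythroid list 41.2% to 44.8% and 56.0% to 59.7%. In each list every Tet2-/- library lay above both Tet2+/+ libraries, as they did in the mean of all promoters (28.8% and 26.6%, and 31.8%, 33.4% and 31.7%) and at 32.8% of single promoters. Cebpe, a transcription factor of granulocyte maturation, was higher in Tet2-/- (2.92% and 2.43%, and 9.58%, 21.5% and 27.0%, edgeR adjusted p = 0.0410), as was Hba-a1, an alpha globin (44.4% and 38.5%, and 88.6%, 86.1% and 85.0%, edgeR adjusted p = 0.0415). The Hba-a1 promoter had only 20 to 36 calls per library, and its call was lost when any 1 library was left out (edgeR adjusted p 0.0785 to 0.419). The call of Cebpe was lost without library 23, 24, 7 or 8 (edgeR adjusted p 0.0927 to 0.485). Limma after median subtraction, which called 0.206% of all promoters, called neither. No lymphoid marker passed in edgeR, limma or the likelihood ratio test. Limma and the likelihood ratio test called 0.93% and 4.72% of all promoters. An unadjusted edgeR p under 0.05 was found for 3 lymphoid (25%), 4 myeloid (26.7%) and 4 erythroid markers (57.1%), against 18.1% of all promoters. All 12 lymphoid differences were above 0, as were 12 of 15 myeloid and all 7 erythroid differences, and 76.7% of those of all promoters. The part of cell composition in the difference at Eid3 was not tested.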

How the data were processed

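The deposited values are raw counts (methylated, unmethylated) for each CpG cytosine, which the authors made with Trim Galore 0.4.3, Bismark 0.19.1 and Bowtie 2 on GRCm38, and with duplicate alignments removed by position. Groups follow the genotypes given in the titles. Strands were added per dyad, and levels are methylated calls over all calls. Genes follow GENCODE vM21 and a promoter spans the 5′ end with 1000 bp before and after. For promoters, glmQLFit and glmQLFTest of edgeR 4.0.16 (R 4.3.3) were used with library, methylation and genotype-by-methylation terms and Benjamini-Hochberg adjustment. Limma 3.58.1 took log2((methylated + 2)/(unmethylated + 2)). Single values were tested by exact permutation. The edgeR fit was tested on simulated promoters at several spreads. The spread whose fitted dispersion was nearest that of the real promoters was taken as the reference. Most changed promoters were recovered there, and at the largest spread none was. Changed promoters had a single, large planted gain and were drawn from the less methylated ones. The simulation lacked the shift over all promoters seen in the real libraries. Its recovery is therefore no measure of power or of false calls in the real data. Recovery of differences as small as those in the thioredoxin, selenoprotein and EID lists (at most 24.4, 30.0 and 11.5 points) was not tested. Members and lists were chosen with earlier results of these data known. Genes named were Eid3, Txnrd1, genes starting within 250 kb, list members past the threshold or with the 3 largest differences, and the 5 promoters most like Eid3.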

Additional observations from a re-analysis of the deposited data

Results flagged for a closer look

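At the Eid3 promoter the plus strand minus the minus strand was above 0 in both Tet2+/+ libraries and below 0 in all 3 Tet2-/- libraries, and the genotypes differed by -6.65 points (exact permutation test, two-sided, p = 0.2). The smallest gap from 0 was -0.10 points, in library 8, from 67 calls on the plus strand and 60 on the minus strand. The difference was -11.7 points with 500 bp and 0.40 points with 2000 bp on each side.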

How the results depend on the processing

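The difference at the Eid3 promoter, on which the locus was chosen, kept its direction in every alternative run, which adds no independent weight. It was 56.4 points as a mean over dyads, 68.2 on the minus strand, 57.4 after subtraction of each library's level, 73.0 with 500 bp and 48.5 with 2000 bp on each side, and 61.2 to 66.8 when each library was left out. The Txnrd1 promoter difference was 0.16 points after subtraction of the library level, 0.037 with 500 bp on each side and, at the start of the CCDS transcript (chosen after seeing the data), -1.20; it was 2.94 to 10.4 when each library was left out. The Txnrd1 body difference turned to -1.29 after subtraction of the library level and was 3.79 to 6.67 with each library left out. The windows of the locus with all Tet2-/- libraries higher numbered 21 of 161 (500 bp) and 17 of 93 (1 kb) after subtraction of the library level. Of all windows of the genome, 13.96% (500 bp) and 15.19% (1 kb) were then higher. With at least 50 calls (1 kb), the higher windows of the locus numbered 20 of 50, against 40.51% of the genome. When libraries were left out, they numbered 61 to 92 (500 bp) and 41 to 54 (1 kb), and no genome share is given for these counts.

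Promoters past the threshold numbered 918 in the likelihood ratio test, 40 in limma after median subtraction, 104 with 500 bp on each side and 0 to 298 when each library was left out. In the likelihood ratio test 62 of 1304 nested promoters were called, against 918 of all 19455. Limma after median subtraction called 0 of 1304, against 40 of 19455. With 500 bp on each side 6 of 1177 were called, against 104 of 18091. When each Tet2-/- library was left out, nested promoters numbered 4 to 19, against 83 to 298 of all promoters. Selenoprotein promoters numbered 3 of 25 in the likelihood ratio test, against 4.72% of all. Leaving out 1 Tet2+/+ library leaves a lone one, which is assumed to vary like the others. The strand difference was -2.29 to 0.68 points and the depth difference -38.1 to -24.4 points with each library left out; the former changed sign without Tet2-/- library 5. The difference between genotypes in the strand difference, added after seeing the data, turned to 0.40 points with 2000 bp on each side and was -8.75 to -4.55 with each library left out. No paired analysis was possible because the genotypes share no replicate numbers. The causes were not tested. At 2.96 to 5.19 calls per dyad, single dyads are imprecise, and 2 against 3 libraries limit an exact comparison of genotypes to p = 0.1.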
